A study of Mus musculus with 8 samples.

Results

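The tumour necrosis factor (TNF) superfamily and the receptors that bind it were read in 5 mouse intestinal adenomas and 3 wild-type (WT) intestines. Members were taken by gene symbol, not by expression. They were the protein-coding genes named Tnfsf or Tnfrsf with a number, plus the 13 family genes with other names (Tnf, Lta, Ltb, Ltbr, Fas, Fasl, Cd27, Cd40, Cd70, Eda, Edar, Eda2r and Ngfr), without Tnfrsf19 and Tnfrsf17. The rule found 42 genes, 17 ligands and 25 receptors, of 39179 genes in the table, and 40 of them passed the filter on low counts.

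The 5 adenoma libraries were RNA from small intestinal adenomas of VilCreER+ APCfl/+ mice, which carry 1 floxed and 1 normal allele of Apc, a brake on Wnt signalling, and which the series describes as aged. The 3 WT libraries were RNA from small intestine of VilCreER+ mice with no floxed Apc. All samples were on an inbred C57BL6/J background, and all tissue had been exposed to tamoxifen, which switches on a Cre recombinase that is made from the villin promoter, and thus in gut epithelium. Ages in numbers, pooling and whether each library came from a separate mouse are not in the labels. Each p-value thus speaks of the spread among these libraries alone, and an unknown part of that spread may be technical.

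TNF superfamily ligands are mostly trimeric membrane proteins of immune cells, and some are cut off the cell and act at a distance. Their receptors either carry a death domain that can start apoptosis, bind TRAF adaptors that switch on NF-kappaB, or are decoys that bind ligand without passing on a signal. In the gut the family directs the building of lymphoid tissue, IgA responses, T cell costimulation, shedding of epithelial cells and the making of M cells, the epithelial cells that sample antigen over lymphoid follicles.

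Total counts ran from 19761919 to 28343915 in the adenoma libraries and from 18040301 to 20029231 in the WT libraries. Apc stood at 132 to 159 CPM (counts scaled to a common library size) in adenomas and at 191 to 211 CPM in WT. Markers of all intestinal epithelium summed to 4848 to 8435 CPM in adenomas and 3857 to 4186 CPM in WT. Adenoma 2 went against its label of small intestine, with 245.5 CPM of the hindgut gene Hoxb13 and 0.470 CPM of Gata4, which is made in upper small intestine, against at most 0.894 CPM and at least 68.4 CPM in every other library. Pancreatic RNA was present in WT 1 and adenoma 5, and B cell markers were high in WT 1. Adenomas 2 to 5 had the Xist level of female tissue, while adenoma 1 and all WT libraries had the male pattern. The adenomas therefore came from more than 1 mouse.

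Of the 40 tested members, 13 were called higher in adenoma and 11 were called lower at a Benjamini-Hochberg adjusted p below 0.05, by the quasi-likelihood test of edgeR. The called share of 60.0% was close to the 58.1% of all 18345 genes tested, of which 30.3% were higher and 27.8% lower. The members' median log2 fold change was -0.06, against 0.04 over all genes. By role, 4 of 15 tested ligands were higher and 4 lower, and 9 of 25 receptors were higher and 7 lower. A test against a factor of 2 called 10 members, 6 higher and 4 lower, or 10 of 40, against 13.2% of all genes, of which 5.66% were higher and 7.52% lower. Without adenoma 2, whose markers go against its label, the counts were 5 ligands higher and 5 lower and 10 receptors higher and 9 lower, while 67.5% of all genes were called. Tnfsf4, called higher with all libraries, was not tested in that fit. Eda and Tnfsf13b were then called higher and Tnfsf8 and Cd40 lower, at log2 changes of 0.59, 0.65, -0.85 and -0.69 (edgeR adjusted p = 0.0341, 0.0227, 0.0351 and 0.0438), none of which was called with all libraries. Over the alternatives their adjusted p ran from 0.0341 to 0.741 for Eda, 0.0227 to 0.439 for Tnfsf13b, 0.0132 to 0.338 for Tnfsf8 and 0.0438 to 0.831 for Cd40. The adenoma and WT libraries did not overlap for 24 members, 13 with all adenomas above and 11 with all below, against 56.9% of all genes tested, of which 29.3% had all adenomas above and 27.6% all below, and these were the same 24 members that were called.

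**Figure D1:**
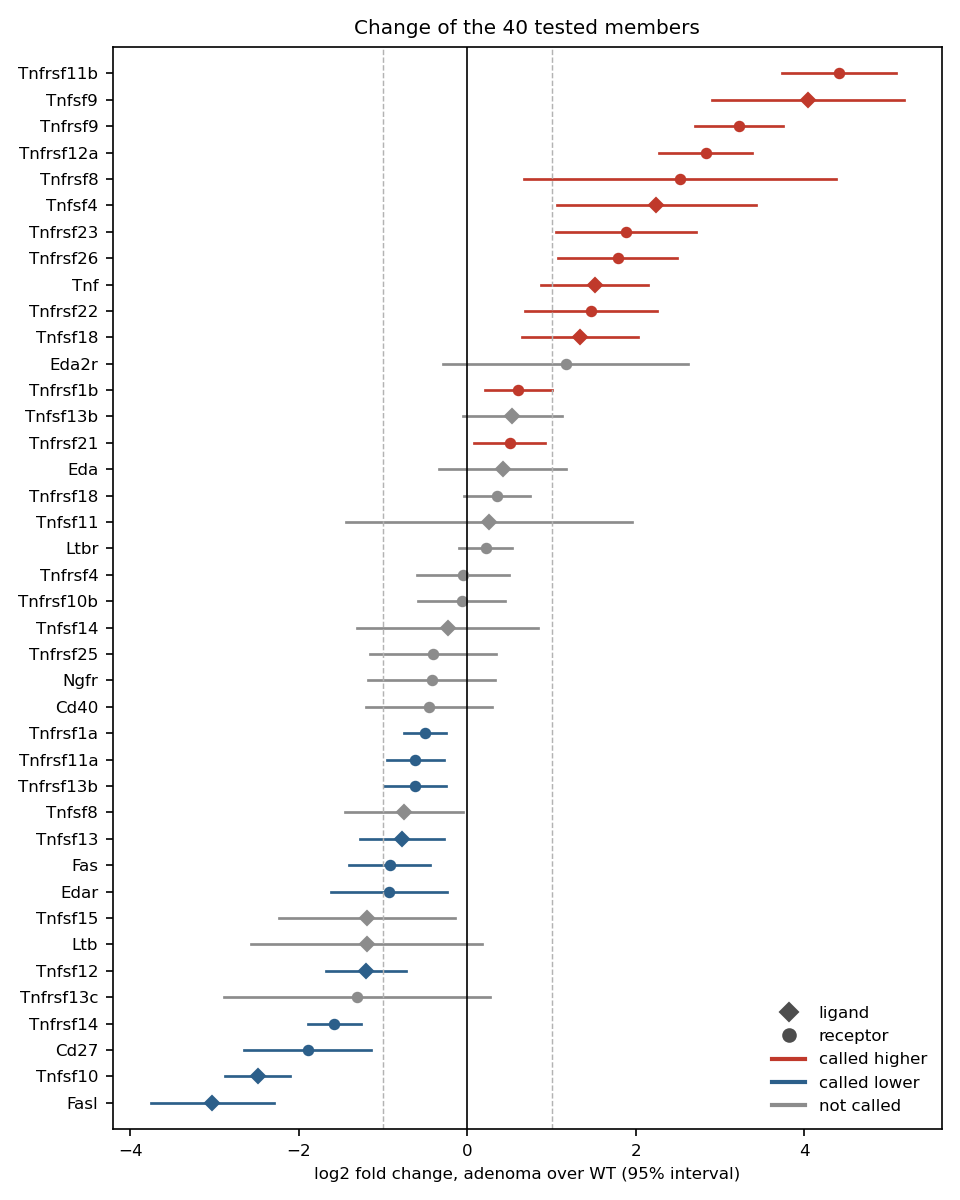
Log2 fold changes of the 40 tested members, adenoma (n = 5) over WT (n = 3), with 95% intervals from the quasi-likelihood fit, ordered by size. Diamonds are ligands and circles receptors, dashed lines mark a factor of 2 each way, and the members run from Tnfrsf11b at 4.41 to Fasl at -3.03.

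Promoter sequence is shown for members whose change passed the test against a factor of 2, since these are the genes a search for shared control elements would start from. RefSeq windows (GRCm38.p6) of 250 bases before the transcription start were at hand for 33 of the 42 members and for 7 of those 10. Tnfsf9, Tnfrsf11b and Tnfrsf26 are named only, and the windows of Tnfrsf23 and Cd27, which held no match to the motifs below, are not printed. Capitals mark matches, on either strand, to a kappaB motif (GGGA, any 4 bases, then CC), an AP-1 motif (TGANTCA) or a TCF/LEF motif (CTTTGAT), and no 2 of the matches shown overlap. Tnfrsf9 is shown at both of its RefSeq starts (chr4:150919905-150920154, plus strand and chr4:150927749-150927998, plus strand), which lie 5593 and 13437 bases inside the GENCODE gene. Tnfrsf14 (chr4:154928078-154928327, minus strand) held the other match. Tnfrsf12a (chr17:23677450-23677699, minus strand), Tnfsf10 (chr3:27316827-27317076, plus strand) and Fasl (chr1:161788496-161788745, minus strand) are shown as the strongest other changes.
Tnfrsf9 first start: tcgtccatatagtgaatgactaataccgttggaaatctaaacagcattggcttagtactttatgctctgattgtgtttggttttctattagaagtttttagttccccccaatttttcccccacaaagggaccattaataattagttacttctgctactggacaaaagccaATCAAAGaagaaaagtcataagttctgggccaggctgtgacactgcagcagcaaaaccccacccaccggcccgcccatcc
Tnfrsf9 second start: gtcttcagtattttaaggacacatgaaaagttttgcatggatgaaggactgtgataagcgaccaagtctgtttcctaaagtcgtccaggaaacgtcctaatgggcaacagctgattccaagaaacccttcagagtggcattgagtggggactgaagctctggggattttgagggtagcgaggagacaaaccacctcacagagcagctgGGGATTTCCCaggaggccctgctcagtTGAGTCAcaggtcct
Tnfrsf12a: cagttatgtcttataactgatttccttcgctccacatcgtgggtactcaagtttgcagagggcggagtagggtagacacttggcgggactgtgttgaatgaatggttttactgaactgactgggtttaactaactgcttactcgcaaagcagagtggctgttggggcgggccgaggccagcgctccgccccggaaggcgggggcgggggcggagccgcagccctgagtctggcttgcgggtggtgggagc
Tnfrsf14: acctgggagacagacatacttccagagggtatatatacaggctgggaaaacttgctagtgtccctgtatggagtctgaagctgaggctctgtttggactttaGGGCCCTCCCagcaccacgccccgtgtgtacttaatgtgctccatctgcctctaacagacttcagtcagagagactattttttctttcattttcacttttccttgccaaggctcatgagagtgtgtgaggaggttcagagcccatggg
Tnfsf10: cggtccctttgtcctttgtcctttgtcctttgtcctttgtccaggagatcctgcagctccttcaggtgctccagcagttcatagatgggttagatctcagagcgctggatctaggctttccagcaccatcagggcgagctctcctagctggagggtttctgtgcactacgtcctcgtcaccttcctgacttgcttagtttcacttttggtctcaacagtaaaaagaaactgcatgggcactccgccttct
Fasl: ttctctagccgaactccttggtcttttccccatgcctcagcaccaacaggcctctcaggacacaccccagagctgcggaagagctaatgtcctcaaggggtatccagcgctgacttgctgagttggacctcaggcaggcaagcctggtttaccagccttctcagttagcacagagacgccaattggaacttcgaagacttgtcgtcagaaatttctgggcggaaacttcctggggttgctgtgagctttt
Over all 32851 RefSeq windows of this length, 17.6% held the kappaB motif, 6.75% the AP-1 motif and 3.20% the TCF/LEF motif. Among the 33 members with a window, 9 held the kappaB motif, 6 the AP-1 motif and 2 the TCF/LEF motif. A member was counted if any of its windows held a match, and Tnfrsf9, for example, has 2 windows. The shares over all windows are per window and the member counts are per gene, so they cannot be set against each other. A match is a description of letters, not a measured binding site.

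Of the higher ligands, Tnfsf9 changed most. Tnfsf9 (ENSMUSG00000035678, GRCm38 chromosome 17, 57105325 to 57107757, plus strand) encodes the ligand of CD137, a costimulatory receptor of T cells. It stood at 6.80, 2.77, 7.10, 9.94 and 7.58 CPM in adenomas 1 to 5, and at 0.611, 0.223 and 0.382 CPM in WT 1 to 3. Every adenoma was above every WT library, and adenoma 2 was the lowest adenoma. The log2 fold change was 4.05 ± 0.50 (SE; adjusted p = 2.57e-04), a 16.5-fold rise. The WT libraries held only 12, 4 and 7 reads of it, so the size of that fold is uncertain. Of its exonic bases, 14.9% overlap Gm11110 on the other strand, which the unstranded libraries cannot separate, and Gm11110 itself was at 1.03 to 1.86 CPM in adenomas and 0.655 to 0.764 CPM in WT.

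The receptor of that ligand moved the same way. Tnfrsf9 (ENSMUSG00000028965, chromosome 4, 150914562 to 150946102, plus strand), which encodes CD137, was at 12.9, 12.02, 8.80, 10.7 and 7.72 CPM in adenomas and at 1.22, 1.00 and 1.09 CPM in WT. Every adenoma was above every WT library, and the log2 fold change was 3.23 ± 0.23 (adjusted p = 2.41e-05). Per kilobase of exon, the receptor-to-ligand ratio spanned 0.482 to 2.06 in adenomas and 0.948 to 2.13 in WT, so the ratios of the groups overlapped. T cell markers fell in the same libraries: 5 of 7 were lower and none higher, and their summed level was 11.6 to 18.4 CPM in adenomas and 43.9 to 55.5 CPM in WT. Whether the T cells or other cells carry these transcripts was not tested.

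Other T cell costimulators of the family went separate ways. Tnfsf4, which encodes the ligand of CD134, was at 0.746, 1.03, 0.357, 0.562 and 0.406 CPM in adenomas and at 0.102, 0.167 and 0.109 CPM in WT, where only 7 reads were counted over the 3 libraries. Its log2 fold change was 2.24 ± 0.52 (adjusted p = 0.00597). Tnfsf4 was tested in only 15 of the 19 alternatives. Among those, its call was lost with scaling to pan-epithelial genes (adjusted p over the alternatives 0.00492 to 0.0773). Tnfsf18, the ligand of GITR, was at 2.05, 1.41, 0.983, 1.56 and 1.56 CPM in adenomas and at 0.458, 0.613 and 0.709 CPM in WT, a log2 change of 1.34 ± 0.30 (adjusted p = 0.00526). The Tnfsf18 call was lost with a replicate block and with scaling to pan-epithelial genes (adjusted p over the alternatives 0.00218 to 0.264). Both ligands were higher in every adenoma than in any WT library. Their receptor genes were not called: Tnfrsf4 averaged 2.08 ± 0.503 CPM in adenomas and 2.16 ± 0.254 CPM in WT, and Tnfrsf18 averaged 4.77 ± 0.639 CPM in adenomas and 3.74 ± 0.454 CPM in WT (SD, n = 5 and 3). The intervals of their log2 fold changes were -0.60 to 0.50 for Tnfrsf4 and -0.04 to 0.74 for Tnfrsf18. Relt, a family receptor outside the symbol rule, was not called either in this fit, at a log2 change of -0.38 ± 0.16 (adjusted p = 0.0728). It was called lower in 4 of the 19 alternatives, DESeq2 among them (adjusted p 0.00382 to 0.701). Cd40lg, which encodes CD40 ligand, was too low to test at 0.0416 CPM in adenomas and 0.214 CPM in WT.

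Tnfrsf8, which encodes the lymphocyte activation receptor CD30, was at 2.00, 6.57, 1.16, 0.821 and 1.39 CPM in adenomas and at 0.611, 0.334 and 0.273 CPM in WT. It was called higher, with a log2 change of 2.52 ± 0.81 (adjusted p = 0.0263), and adenoma 2 was the highest library by a wide margin. Without adenoma 2 the log2 change was 1.69, still called. That call was lost when any 1 WT library was left out, with limma-voom, and in 3 other alternatives, where adjusted p ran up to 0.164 (range over all 19 alternatives 0.00161 to 0.164). Its ligand gene Tnfsf8 averaged 1.00 ± 0.284 CPM in adenomas and 1.69 ± 0.451 CPM in WT and was not called (adjusted p = 0.0642).

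Cd27, the costimulatory receptor of naive and memory lymphocytes, was among the lower receptors. It stood at 0.839, 1.03, 0.357, 0.432 and 0.677 CPM in adenomas and at 2.85, 2.17 and 2.46 CPM in WT, with a log2 change of -1.90 ± 0.33 (adjusted p = 0.00147). All adenomas were below all WT libraries, as they were for 5 of the 7 T cell markers, while Cd2 and Cd5 overlapped. In these bulk samples fewer cells of a type and less RNA per cell cannot be told apart. The gene of its ligand, Cd70, was close to undetected, with 2 reads over the 5 adenomas and none over the 3 WT libraries, so no fold was taken. With the Xist and Y gene pattern as a covariate the Cd27 call was lost (adjusted p over the alternatives 1.52e-06 to 0.0822).

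**Figure D2:**
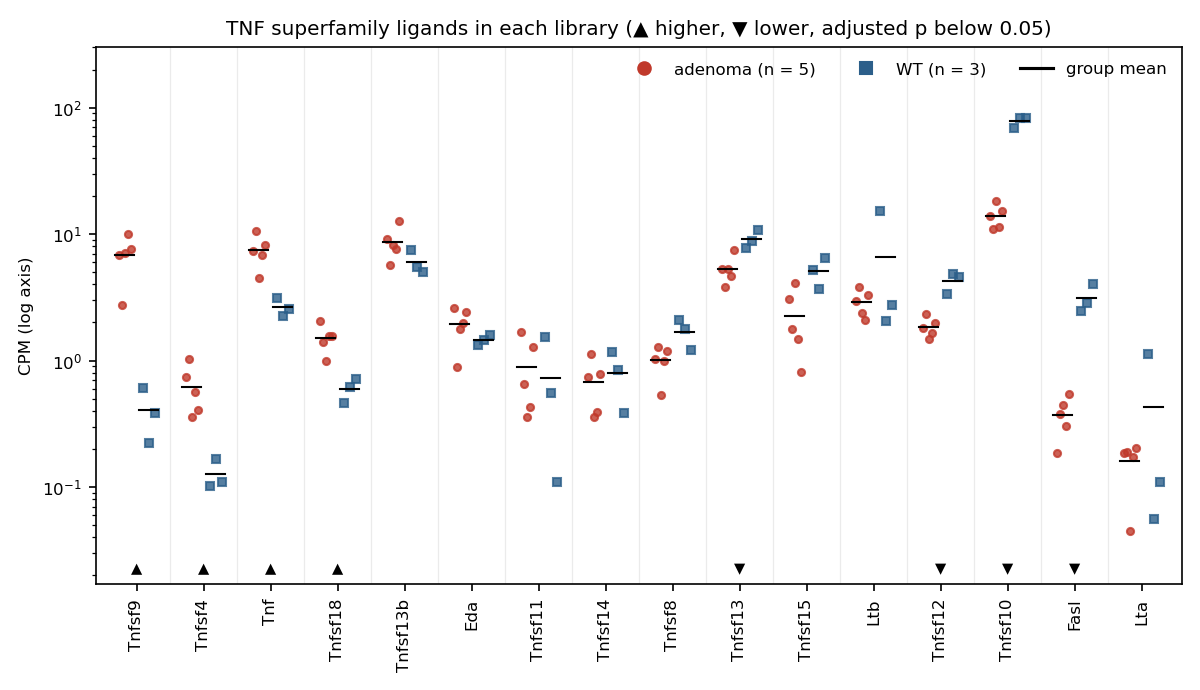
Level of 16 ligand genes in each library, in CPM on a log axis, with adenomas as circles, WT libraries as squares and group means as bars. Tnfsf9 shows the widest gap upward, at means of 6.84 CPM in adenoma and 0.405 CPM in WT, and Fasl the widest downward, at 0.371 CPM in adenoma and 3.11 CPM in WT. Cd70 is left out because most libraries had no read.

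TRAIL and Fas ligand transcripts were lower in adenoma. Tnfsf10 (ENSMUSG00000039304, chromosome 3, 27317028 to 27342427, plus strand) encodes TRAIL, which kills cells through receptors with a death domain. It was at 13.8, 10.9, 18.4, 11.4 and 15.2 CPM in adenomas and at 69.5, 82.9 and 82.4 CPM in WT. All adenomas were far below all WT libraries. The log2 fold change was -2.49 ± 0.17 (adjusted p = 1.97e-05). Per kilobase it was the most abundant ligand of WT, at 14.9 CPM per kilobase, and the fourth in adenoma, at 2.65 CPM per kilobase. Of 6 enterocyte markers, 3 were lower in the same libraries and none higher. Their summed levels were 392.2 to 9222 CPM in adenomas and 13082 to 21899 CPM in WT. The enterocyte marker Alpi went the other way without a call, at a log2 change of 1.19 ± 1.21. Its means were 1293 CPM in adenomas and 567 CPM in WT. Of 5 markers of all leukocytes 3 were lower, at 150.04 to 214 CPM in adenomas and 267 to 445 CPM in WT. Their part in the Tnfsf10 level was not tested.

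Fasl (ENSMUSG00000000817, chromosome 1, 161780689 to 161788495, minus strand), the death ligand of cytotoxic lymphocytes, had the largest fall of the family. It was at 0.186, 0.376, 0.447, 0.303 and 0.542 CPM in adenomas and at 2.44, 2.84 and 4.04 CPM in WT, a log2 change of -3.03 ± 0.32 (adjusted p = 1.25e-04). Its receptor gene Fas, whose protein carries a death domain, was at 7.04, 4.79, 6.88, 8.17 and 10.1 CPM in adenomas and at 15.0, 14.3 and 12.8 CPM in WT, a log2 change of -0.92 ± 0.21 (adjusted p = 0.00555). Neither gene overlapped between the groups. The Fas call was lost with the Xist and Y gene pattern as a covariate (adjusted p over the alternatives 1.94e-04 to 0.0857). Markers of NK and innate lymphoid cells were lower beside Fasl, 3 of 6 called, with summed levels of 41.3 to 60.7 CPM in adenomas and 114 to 143 CPM in WT, and their part in the result was not tested.

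The TRAIL receptors split by kind. Tnfrsf10b, the only mouse TRAIL receptor with a death domain, was at 4.80 to 7.91 CPM in adenomas and 5.24 to 9.49 CPM in WT, with overlapping groups and a log2 change of -0.07 (95% interval -0.58 to 0.45). The genes of a cluster on chromosome 7, Tnfrsf26, Tnfrsf22 and Tnfrsf23, lie within 78.2 kilobases and were all higher. Tnfrsf22 and Tnfrsf23 encode mouse decoy receptors that bind TRAIL without a death domain. Tnfrsf23 was at 7.74, 3.71, 7.77, 9.34 and 5.92 CPM in adenomas and at 1.12, 2.56 and 1.91 CPM in WT, a log2 change of 1.89 ± 0.37 (adjusted p = 0.00245). Tnfrsf26 was at 4.38, 5.59, 3.04, 4.41 and 3.05 CPM in adenomas and at 1.27, 1.505 and 0.764 CPM in WT, a log2 change of 1.79 ± 0.31 (adjusted p = 0.00144). Tnfrsf22 was the lowest of them, averaging 1.10 ± 0.259 CPM in adenomas and 0.398 ± 0.152 CPM in WT, a log2 change of 1.47 ± 0.35 (adjusted p = 0.00650). No adenoma overlapped with WT for any of these genes. Of stretches as long as a read, 36 bases, 34.9% of those in Tnfrsf22 and 25.6% of those in Tnfrsf23 also occur in another gene, mainly each other, so reads may have been lost or split between them. The Tnfrsf22 call was lost with a replicate block and without WT 1 and adenoma 5 together (adjusted p over the alternatives 0.00382 to 0.213).

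Tnfrsf11b had the largest rise of the family. Tnfrsf11b (ENSMUSG00000063727, chromosome 15, 54250619 to 54278484, minus strand) encodes osteoprotegerin, a secreted decoy that binds RANK ligand and, less tightly, TRAIL. It was at 104, 119, 60.2, 85.4 and 111 CPM in adenomas and at 5.04, 5.29 and 3.16 CPM in WT. All adenomas lay far above all WT libraries. The log2 fold change was 4.41 ± 0.30 (adjusted p = 2.10e-05), or 21.3-fold, and it stayed between 3.68 and 4.55 over the 19 alternatives. Fibroblast markers were higher in the same libraries, 4 of 5 called, with summed levels of 1464 to 1870 CPM in adenomas and 529 to 695 CPM in WT. Of 4 mast cell markers 3 were higher, at 15.5 to 30.8 CPM in adenomas and 12.5 to 14.9 CPM in WT. The part of these cells in the Tnfrsf11b level was not tested.

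The signalling partners of that decoy did not rise. Tnfrsf11a, which encodes RANK, was at 33.3, 52.3, 35.3, 36.1 and 41.0 CPM in adenomas and at 55.5, 66.0 and 61.1 CPM in WT, a log2 change of -0.62 ± 0.15 (adjusted p = 0.00715). Tnfsf11, which encodes RANK ligand, was low and spread widely within both groups, at 1.68, 0.657, 0.357, 0.432 and 1.29 CPM in adenomas and at 1.53, 0.557 and 0.109 CPM in WT. It was not called, and the 95% interval of its log2 fold change, -1.44 to 1.96, spans a factor of 2 in either direction. Per kilobase of exon, osteoprotegerin stood at 3.63 to 6.65 times the level of RANK in adenomas and at 0.110 to 0.193 times that level in WT. Against RANK ligand the ratio was 49.3 to 157 in adenomas and 2.62 to 23.0 in WT.

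RANK signalling is known to induce M cells, and a list of M cell genes was read beside it. Of 8 tested, 3 were higher and 1 lower, against 30.3% and 27.8% of all genes, their median log2 change being 0.92. With libraries scaled by upper quartile instead, 2 were lower. The higher ones were Marcksl1, Pglyrp1 and Anxa5, at log2 fold changes of 3.84 ± 0.26, 2.52 ± 0.29 and 1.82 ± 0.24 (adjusted p = 1.94e-05, 1.86e-04 and 3.31e-04), each of which is also made outside M cells. Cx3cl1, a membrane-bound chemokine, was lower at -0.61 ± 0.10 (adjusted p = 8.51e-04), a call lost with the Xist and Y gene pattern as a covariate (adjusted p over the alternatives 8.38e-08 to 0.0606). The genes that define M cells were not called: Spib, their transcription factor, had a log2 change of -1.66 ± 0.64 (adjusted p = 0.0524) and Gp2, a receptor for bacteria on mature M cells that pancreatic acinar cells also make, 1.52 ± 1.90 (adjusted p = 0.515). Spib rested on WT 1, at 2.44 to 5.97 CPM in adenomas and at 24.7, 3.01 and 5.13 CPM in WT 1, 2 and 3, and Gp2 was highest in adenoma 5 and WT 1, the libraries with pancreatic RNA. Sox8 was too low to test.

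**Figure D3:**
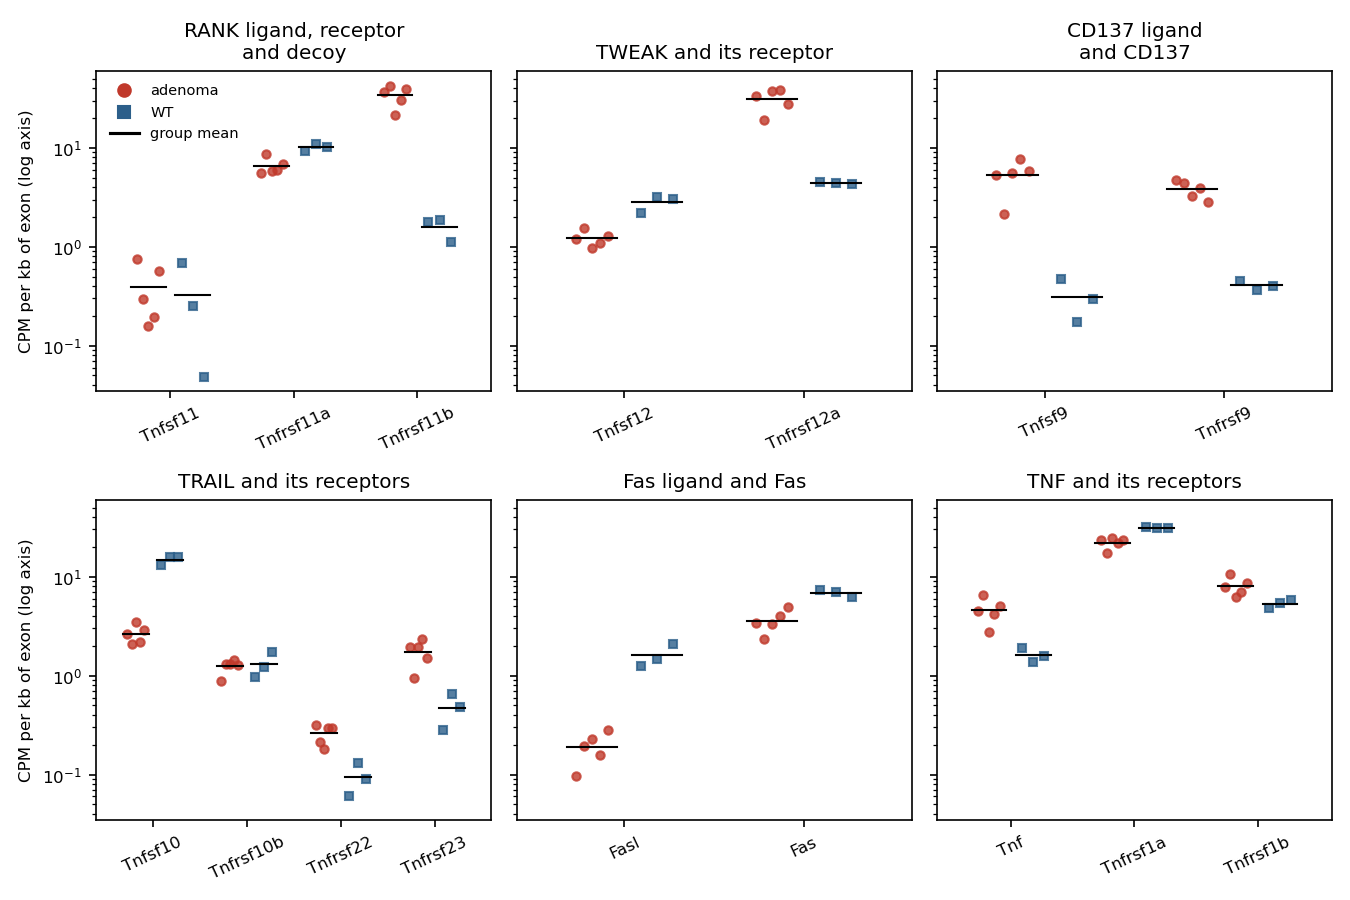
Levels of ligands and their receptors in CPM per kilobase of exon on a log axis, adenomas as circles left of WT squares, bars at group means. Tnfrsf11b, Tnfrsf12a, Tnfsf9 and Tnfrsf9 stand above WT in every adenoma, while Tnfsf12, Tnfsf10, Fasl, Fas, Tnfrsf1a and Tnfrsf11a stand below it.

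TWEAK and its receptor moved in opposite directions. Tnfrsf12a (ENSMUSG00000023905, chromosome 17, 23675445 to 23677468, minus strand) encodes Fn14, the TWEAK receptor that is induced in injured and growing tissue. It was at 64.3, 36.6, 72.9, 74.5 and 54.2 CPM in adenomas and at 8.71, 8.53 and 8.29 CPM in WT, a log2 change of 2.83 ± 0.24 (adjusted p = 4.84e-05). The groups lay far apart, with adenoma 2 the lowest adenoma. Tnfsf12, the gene of TWEAK, was at 1.82, 2.35, 1.47, 1.64 and 1.96 CPM in adenomas and at 3.36, 4.85 and 4.58 CPM in WT, a log2 change of -1.20 ± 0.21 (adjusted p = 0.00145). The receptor-to-ligand ratio per kilobase was 12.2 to 38.8 in adenomas and 1.38 to 2.03 in WT. Of the exonic bases of Tnfsf12, 48.3% are shared with the read-through gene Tnfsfm13, which had no read in any library, so the level of Tnfsf12 and with it the ratio rests on the rest of the gene if the counter dropped shared reads.

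TNF itself was higher in adenoma, and its receptors changed by less. Tnf (ENSMUSG00000024401, chromosome 17, 35199381 to 35202007, minus strand), the inflammatory cytokine of macrophages and T cells, was at 7.41, 10.7, 4.51, 6.87 and 8.19 CPM in adenomas and at 3.11, 2.23 and 2.56 CPM in WT. The log2 fold change was 1.51 ± 0.28 (adjusted p = 0.00192), with no overlap. Tnfrsf1a, the widely expressed TNF receptor with a death domain, was at 61.3, 45.03, 63.2, 56.5 and 60.9 CPM in adenomas and at 82.6, 80.4 and 80.6 CPM in WT, a log2 change of -0.50 ± 0.11 (adjusted p = 0.00496). Tnfrsf1b, the TNF receptor without a death domain that is prominent on leukocytes and endothelium, was at 30.2, 40.8, 24.0, 26.5 and 33.3 CPM in adenomas and at 18.3, 20.7 and 22.1 CPM in WT, a log2 change of 0.60 ± 0.17 (adjusted p = 0.0163). Each of the receptors thus kept separate groups in opposite directions, and the Tnfrsf1b level per kilobase was 0.258 to 0.614 times that of Tnfrsf1a in adenomas and 0.150 to 0.186 times in WT. Adenoma 2 had the highest Tnf and Tnfrsf1b and the lowest Tnfrsf1a.

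Markers of other cell types were read beside Tnf and its receptors. Of 8 markers of macrophages and dendritic cells, 3 were lower and none higher, with summed levels of 203 to 373 CPM in adenomas and 303 to 320 CPM in WT, and adenoma 2 was the highest library. Of 6 neutrophil markers, 5 were higher, with summed levels of 13.9 to 88.6 CPM in adenomas and 4.68 to 6.002 CPM in WT, and Ly6g had no read in WT. Endothelial markers were higher for 4 of 5, at 138 to 226 CPM in adenomas and 127 to 146 CPM in WT. The part of these cells in the Tnf and receptor values was not tested. The Tnfrsf1b call was lost without WT 1 and in 4 other alternatives (adjusted p 0.00728 to 0.752) and the Tnfrsf1a call with the Xist and Y gene pattern as a covariate (7.32e-05 to 0.143).

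Tnfrsf21, which encodes a death receptor known from neurons and lymphocytes, was at 29.1, 42.9, 24.7, 25.8 and 29.5 CPM in adenomas and at 21.7, 19.2 and 23.4 CPM in WT. Its call (log2 fold change 0.50 ± 0.19, adjusted p = 0.0434) was the weakest of the family. It was lost in 13 of the 19 alternatives, among them leaving out any 1 WT library, adenoma 1 or adenoma 5 (adjusted p 0.0167 to 0.599).

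**Figure D4:**
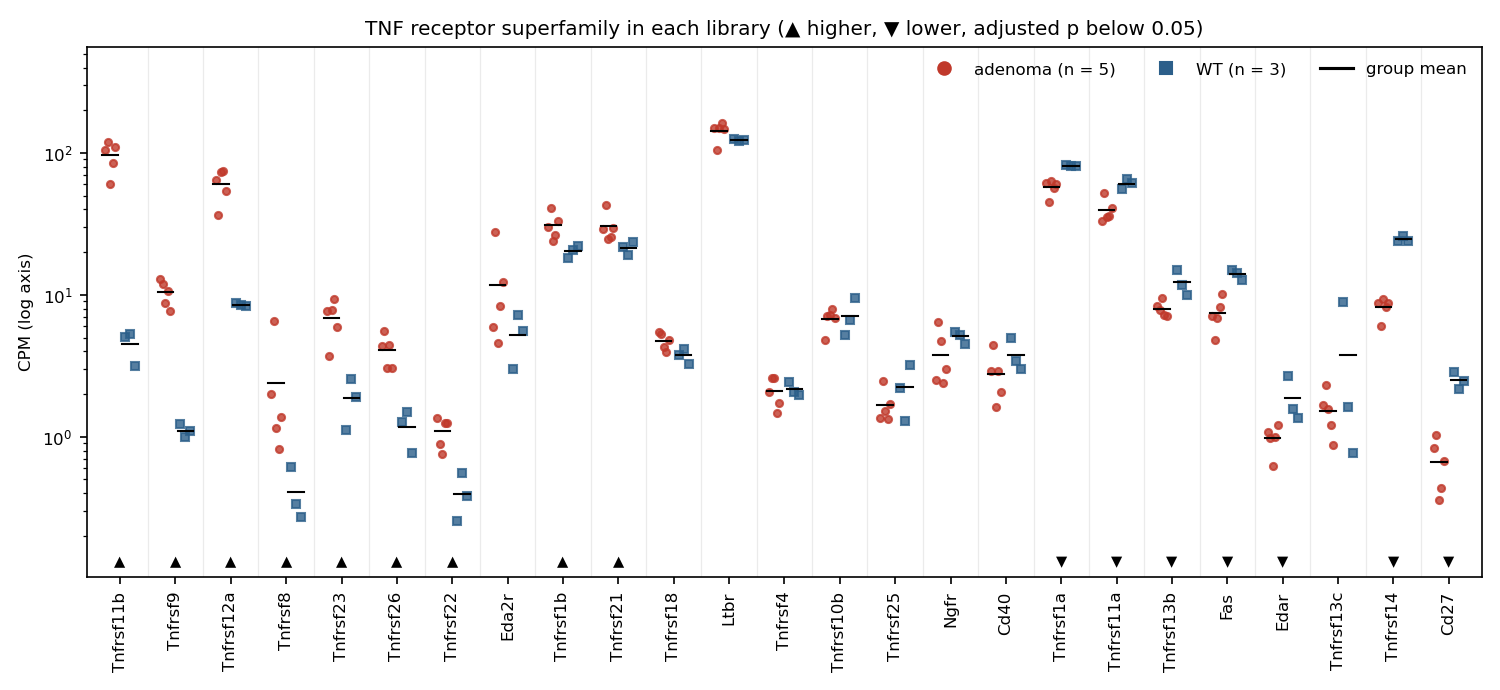
Level of the 25 receptor genes in each library, in CPM on a log axis, with adenomas as circles, WT libraries as squares and group means as bars, ordered by fold change. Tnfrsf11b, Tnfrsf9 and Tnfrsf12a lie apart from WT on the left, at adenoma means of 96.0, 10.4 and 60.5 CPM, and Tnfrsf14 and Cd27 lie below WT on the right.

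Genes of the LIGHT and TL1A arms were lower or not called. Tnfrsf14 (ENSMUSG00000042333, chromosome 4, 154921933 to 154928563, minus strand), which encodes HVEM, a receptor of LIGHT and of inhibitory lymphocyte ligands that intestinal epithelium also makes, was at 8.81, 6.06, 9.38, 8.17 and 8.70 CPM in adenomas and at 23.9, 25.9 and 24.0 CPM in WT. It did not overlap between the groups, with a log2 change of -1.58 ± 0.14 (adjusted p = 5.48e-05). Of the enterocyte markers given beside Tnfsf10, 3 of 6 were lower in the same libraries, and their part in the Tnfrsf14 level was not tested. Its ligand gene Tnfsf14 averaged 0.680 ± 0.317 CPM in adenomas and 0.796 ± 0.396 CPM in WT and was not called (adjusted p = 0.689). Tnfsf15, which encodes TL1A, was at 3.08, 1.78, 4.07, 1.47 and 0.812 CPM in adenomas and at 5.19, 3.68 and 6.44 CPM in WT, just short of the threshold in this fit (log2 fold change -1.19 ± 0.46, adjusted p = 0.0516). It was called lower in 7 of the 19 alternatives, DESeq2 and limma-voom among them (adjusted p 0.00238 to 0.496). Its receptor gene Tnfrsf25 averaged 1.68 ± 0.475 CPM in adenomas and 2.23 ± 0.969 CPM in WT and was not called.

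Lymphotoxin and B cell survival genes turned on 1 library. Ltb, which encodes the membrane anchor of lymphotoxin, was at 2.94, 3.803, 2.37, 2.08 and 3.32 CPM in adenomas and at 15.1, 2.06 and 2.73 CPM in WT 1, 2 and 3. Tnfrsf13c, the BAFF receptor of B cells, was at 1.68, 2.30, 1.56, 1.21 and 0.880 CPM in adenomas and at 8.91, 1.62 and 0.764 CPM in WT. Lta, the soluble lymphotoxin subunit, had 1 to 6 reads per library in adenomas and 22, 1 and 2 reads in WT 1, 2 and 3, and was not tested. In each case WT 1 was the highest library, while WT 2 and WT 3 lay within the adenoma range or close to it. B cell markers were also highest in WT 1: summed over 6 genes they were at 9.48 to 14.4 CPM in adenomas, and at 165 CPM in WT 1, 14.4 CPM in WT 2 and 11.7 CPM in WT 3. Their part in these values was not tested. Without WT 1, Ltb had a log2 change of 0.28 and Tnfrsf13c one of 0.36, against -1.20 and -1.31 with it, and neither was called in either fit. Both were called lower with scaling to pan-epithelial genes, Ltb also without WT 2 and Tnfrsf13c also without WT 3. Adjusted p over the alternatives ran from 0.0237 to 0.584 for Ltb and from 0.0305 to 0.750 for Tnfrsf13c.

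**Figure D5:**
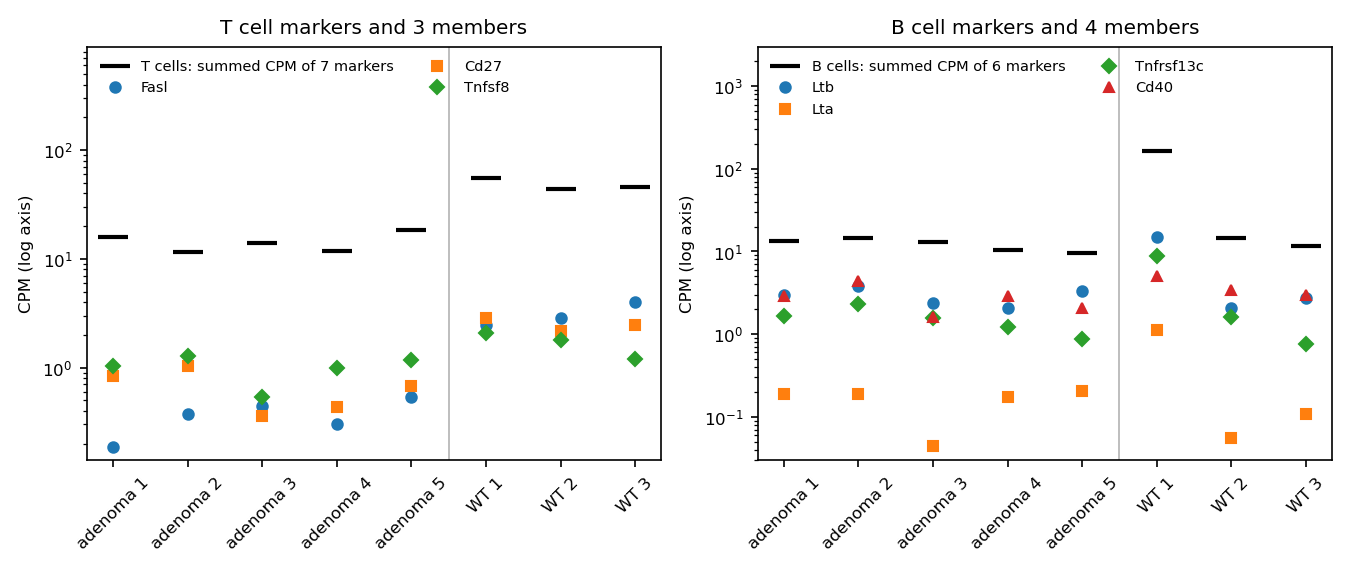
Members and cell type markers by library, in CPM on a log axis, adenomas left of the line and WT right of it. Dashes give the summed level of 7 T cell markers (left) and 6 B cell markers (right). The T cell markers are lower in all adenomas, as are Fasl and Cd27, while the B cell markers, Ltb, Lta and Tnfrsf13c peak in WT 1 alone.

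Ltbr, the receptor of lymphotoxin on stroma and epithelium, was the most abundant receptor per kilobase in both groups, at 60.8 CPM per kilobase in adenomas and 52.3 in WT. It was at 150.4, 105, 151, 162 and 147 CPM in adenomas and at 125, 122 and 122 CPM in WT. Adenoma 2 lay below all WT libraries and the other 4 above them, and the gene was not called (log2 fold change 0.22, 95% interval -0.09 to 0.53). Without adenoma 2 it was called higher at a log2 change of 0.30 (adjusted p = 0.00353). With scaling to pan-epithelial genes it was called lower, at -0.61 (adjusted p = 0.00330). Over the alternatives adjusted p ran from 0.00330 to 0.604. Genes of lymphoid stroma and follicles, which lymphotoxin maintains, had 1 of 6 higher and 2 lower, against 30.3% and 27.8% of all genes. Pdpn, a glycoprotein of fibroblasts and lymphatic vessels, was higher by 1.20 ± 0.12 on the log2 scale (adjusted p = 1.02e-04). The B cell and follicle genes Fcer2a and Cr2 were lower by this fit (log2 fold changes -2.75 and -4.19, adjusted p = 0.0131 and 0.0154), but both calls were lost without WT 1 (adjusted p over the alternatives 5.54e-04 to 0.196 and 0.0111 to 0.317).

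Genes of IgA and plasma cell support were mostly lower or uncalled. Tnfrsf13b, which encodes TACI, a receptor of BAFF and APRIL on B and plasma cells, was at 8.34, 7.79, 9.43, 7.18 and 7.11 CPM in adenomas and at 15.1, 11.8 and 9.98 CPM in WT, a log2 change of -0.62 ± 0.16 (adjusted p = 0.00990). The lowest WT library stood only a little above the highest adenoma, and the call was lost without WT 1 and adenoma 5 together and in 2 other alternatives (adjusted p 7.32e-04 to 0.169). Tnfsf13, the gene of APRIL, was at 5.31, 3.803, 5.27, 4.67 and 7.48 CPM in adenomas and at 7.74, 8.81 and 10.8 CPM in WT, a log2 change of -0.78 ± 0.22 (adjusted p = 0.0149). That call was lost without WT 3 and with the Xist and Y gene pattern as a covariate (adjusted p over the alternatives 8.71e-04 to 0.167). Of the exonic bases of Tnfsf13, 60.05% are shared with Tnfsfm13 or the antisense gene Tnfsf13os. The antisense gene was itself at 2.25 to 6.03 CPM in adenomas and 7.02 to 10.1 CPM in WT. Tnfsf13b, the gene of BAFF, was at 5.73 to 12.6 CPM in adenomas and 5.02 to 7.43 CPM in WT and was not called (adjusted p = 0.103). Plasma cell markers had 2 of 5 higher and 1 lower, at summed levels of 1414 to 2045 CPM in adenomas and 1305 to 1499 CPM in WT. The higher ones were Sdc1, which epithelium also makes, at 468 CPM in adenomas and 90.3 CPM in WT, and Mzb1, whose groups overlapped, while Jchain was not called at 1208 CPM in adenomas and 1289 CPM in WT. Cd40, the receptor of T cell help on B cells and antigen-presenting cells, was at 1.61 to 4.41 CPM in adenomas and 3.00 to 4.99 CPM in WT and was not called.

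Of the ectodysplasin arm, known from hair, teeth and glands, the receptor and its adaptor were lower. Edar, the ectodysplasin receptor, was at 1.07, 0.986, 0.626, 0.994 and 1.22 CPM in adenomas and at 2.70, 1.56 and 1.36 CPM in WT, a log2 change of -0.93 ± 0.30 (adjusted p = 0.0264). Its adaptor gene Edaradd fell further, to 0.936 CPM in adenomas, against 6.68 CPM in WT (log2 fold change -2.83 ± 0.31, adjusted p = 1.40e-04). The Edar call was lost without WT 1 and in 3 other alternatives (adjusted p 0.00405 to 0.275). The X-linked genes Eda, the ligand, and Eda2r, the receptor of another Eda splice form, were not called. Eda2r spread widely in adenomas, at 5.97, 27.8, 4.56, 8.30 and 12.4 CPM, against 3.00, 7.19 and 5.57 CPM in WT, with adenoma 2 the highest. Ngfr, the neurotrophin receptor of glia and nerves, averaged 3.797 ± 1.72 CPM in adenomas and 5.09 ± 0.503 CPM in WT and was called lower only without adenoma 2, of all the fits run (adjusted p = 0.300 with all libraries).

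Position did not fix direction. With gaps of up to 500 kilobases, 23 members fell into 9 groups of neighbours. Tnfsf4, Tnfsf18 and Fasl lie within 393 kilobases of chromosome 1, and the first pair rose while Fasl fell. Cd27, Ltbr and Tnfrsf1a lie within 130 kilobases of chromosome 6, where 2 fell and 1 was not called. The 3 genes of the chromosome 7 cluster all rose, and Tnfrsf1b and Tnfrsf8, within 102 kilobases of chromosome 4, both rose. Tnfsf12 and Tnfsf13, 13.0 kilobases end to end on chromosome 11, both fell.

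Per kilobase, the order of the ligands differed between the groups. In adenomas Tnfsf9 led at 5.30 CPM per kilobase, followed by Tnf at 4.59 and Tnfsf13 at 3.24. In WT Tnfsf10 led at 14.9 CPM per kilobase, followed by Tnfsf13 at 5.57 and Ltb at 4.38, of which the last rests on WT 1. Among receptors, Ltbr was followed in adenomas by Tnfrsf11b at 34.1, Tnfrsf12a at 31.3 and Tnfrsf1a at 22.2 CPM per kilobase, and in WT by Tnfrsf1a at 31.4, Tnfrsf14 at 17.1 and Tnfrsf11a at 10.2. Differences between neighbours in these orders were not tested. Of the exonic bases, 60.05% in Tnfsf13, 48.3% in Tnfsf12 and 14.9% in Tnfsf9 are shared with other genes. If the counter dropped shared reads, the levels of these genes per kilobase are too low and their places in the order uncertain.

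Genes that act around the receptors were read from lists, which were chosen with earlier results of these data known. Of 8 genes that act in cutting ligands off the cell or processing them, or that hold this back, 7 were higher, against 30.3% of all genes. Their median log2 change was 0.55, and none of them passed the test against a factor of 2. The 7 include Timp3, an inhibitor of the shedding proteases, at a log2 change of 1.11 ± 0.35 (adjusted p = 0.0242), so the count does not speak for more shedding. Adam10 and Adam17, the shedding proteases, were higher by 0.64 ± 0.10 and 0.32 ± 0.08 on the log2 scale (adjusted p = 0.00102 and 0.00647), the rhomboid partner Rhbdf1 by 0.95 ± 0.16 (adjusted p = 0.00133) and the proprotein convertase Furin by 0.62 ± 0.12 (adjusted p = 0.00266). Of 29 adaptors and proximal complex genes, 3 were higher and 10 lower, against 30.3% and 27.8% of all genes, with a median of -0.16. Tab3, a partner of the kinase TAK1, and Cyld, a deubiquitinase that restrains NF-kappaB, were lower, at log2 fold changes of -1.18 ± 0.10 and -0.56 ± 0.07 (adjusted p = 4.02e-05 and 2.55e-04), and Traf4 was higher by 0.83 ± 0.09 (adjusted p = 1.43e-04). Edaradd, the adaptor of Edar described above, fell furthest of the adaptors named here. The Adam17 call was lost with the replicate block and with the Xist and Y gene pattern as a covariate (adjusted p over the alternatives 0.00339 to 0.115).

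Of 13 NF-kappaB subunits, kinases and inhibitors, 3 were higher and 3 lower, against 30.3% and 27.8% of all genes, with a median of -0.02. Rela was higher by 0.61 ± 0.09 on the log2 scale (adjusted p = 6.55e-04), while Rel, Relb and the kinase gene Chuk had log2 fold changes of -0.96, -0.51 and -0.66 (adjusted p = 0.00110, 0.00475 and 0.00222). The Rel and Chuk calls were lost with the Xist and Y gene pattern as a covariate (adjusted p over the alternatives 5.69e-07 to 0.0545 and 5.72e-06 to 0.0753), and the Relb call with the replicate block (1.37e-04 to 0.0902). NF-kappaB-responsive genes moved more: of 23 tested, 15 were higher and 3 lower, against 30.3% and 27.8% of all genes. Their median log2 change was 2.14, against 0.04 for all genes. This list was chosen with earlier results of these data known, so its counts and median are a description only. Ptgs2 (cyclooxygenase), Il1b and Ier3 were higher by 3.33 ± 0.32, 2.83 ± 0.30 and 3.22 ± 0.26 (adjusted p = 9.18e-05, 1.30e-04 and 3.83e-05), and Tnip1, an inhibitor of NF-kappaB, was lower, at -1.19 ± 0.07 (adjusted p = 9.58e-06). Many of these genes also answer to other signals, and neutrophil markers were higher in the same libraries, whose part in the list was not tested.

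The calls above hold relative to the bulk of genes. With libraries scaled instead so that pan-epithelial genes had equal sums, the log2 fold changes of all genes had a median of -0.75 in place of 0.04. Ligands then stood at 1 higher and 7 lower and receptors at 4 higher and 11 lower, while 59% of all genes were called. Tnfsf9, Tnfrsf11b, Tnfrsf9, Tnfrsf12a and Tnfrsf23 were still called higher under that scaling. Tnf, Tnfsf4, Tnfsf18, Tnfrsf8, Tnfrsf22 and Tnfrsf26 kept a positive sign without a call, while Tnfrsf1b and Tnfrsf21, and of the machinery Adam10, Adam17, Furin and Rela, turned negative and uncalled, and Ltbr was called lower. Rhbdf1, Traf4 and Pdpn kept a positive sign there, at log2 changes of 0.19, 0.06 and 0.43, without a call.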

How the data were processed

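Qiagen RNeasy kits were used for RNA, which was made into libraries with a TruSeq RNA v2 kit and read as paired ends of 36 cycles, per the labels' protocols. That kit marks no strand. The authors deposited raw counts per gene, which per the submitters' processing notes were made with TopHat2 and HTSeq on GRCm38. For tool versions, annotation release and counting mode: not given in the sources used here. FastQC is also named there. All 8 value columns were matched to a library by title.

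Symbols, positions and merged exon lengths came from GENCODE M21 (GRCm38), which named 37607 of 39179 identifiers. Total counts per library were 18040301 to 28343915. Counts were filtered with filterByExpr, scaled by TMM and tested over 18345 genes with robust quasi-likelihood fits in edgeR 4.0.16 (R 4.3.3), with Benjamini-Hochberg adjustment at 0.05 and glmTreat against a factor of 2. CPM uses TMM library sizes. SE is the absolute log2 fold change over the square root of F. DESeq2 1.42.0 and limma-voom (limma 3.58.1) were alternatives. Genes that collect ribosomal RNA reads took 10.7 to 23.5% of counts and were left out in an alternative. Libraries of 1 group always differed by more than sampling noise (chi-square per degree of freedom 21.9 to 163). At these depths 3 counts correspond to 0.102 to 0.167 CPM, and this covers counting error only. The fits were tested on simulated data.

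Members and lists were chosen with earlier results of these data known. Every tested member is named. Of each pathway list the text names up to 4 genes with the smallest adjusted p and the leading gene of the minority direction, or the 2 highest where none passed. Spib, Gp2, Sox8 and Timp3 were named beyond that rule after their values were seen.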

Additional observations from a re-analysis of the deposited data

Results flagged for a closer look

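Among the 5 adenomas, 1 library stood apart from the other 4 by Dixon's test at the 95% level for 3 of the 40 tested members, and in each case it was adenoma 2. Chance marks about 1 in 20 groups in this test. Tnfrsf8 reached 6.57 CPM there, while the remaining adenomas spanned 0.821 to 2.00 CPM. Tnfrsf21 reached 42.9 CPM there, above 24.7 to 29.5 CPM elsewhere. Ltbr was at 105 CPM in adenoma 2, below the 147 to 162 CPM of the others. Adenoma 2 was also the library with Hoxb13 and almost no Gata4, and the part of this in the 3 values was not tested.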

How the results depend on the processing

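Of the 24 called members, 10 were called under all 19 alternatives (or all that tested them). In the fits that left out 1 library, 19 were called in every fit that tested them. Leaving out 1 library gave 3 to 5 ligands higher, 3 to 5 lower, 6 to 10 receptors higher and 6 to 9 lower, against 4, 4, 9 and 7 with all libraries, while the share of all genes called ran from 46.4% without WT 3 to 67.5% without adenoma 2, against 58.1%. Scaling to pan-epithelial genes gave 1 ligand higher and 7 lower and 4 receptors higher and 11 lower (59% of all genes called). It also turned the log2 fold changes of Ltbr (-0.61), Tnfrsf1b (-0.13), Tnfrsf21 (-0.22), Adam10 (-0.16), Adam17 (-0.47), Furin (-0.20) and Rela (-0.18) negative, as the shift of all genes by that scaling does. Leaving out WT 1 and adenoma 5 together gave 5 receptors higher (42.7% of all genes called), and taking the Xist and Y gene pattern as a covariate gave 2 receptors lower (29.3%). The cause was not tested. In that last fit the group difference rests on adenoma 1 against the 3 WT libraries. Replicate numbers shared between the groups do not pair the samples: deviations of same-numbered libraries had correlations of -0.02, 0.05 and 0.06. With the replicate block 3 ligands were higher and 4 lower, 6 receptors were higher and 5 lower, and 35.7% of all genes were called. Of the 16 members not called, 9 changed sign without a call in some alternative. Low counts limit Tnfsf4, Lta and Cd70 most, and Tnfsf11, Tnfsf14 and Tnfrsf22 were low as well. Tnfsf9 and Tnfrsf8 had only 23 reads each over the 3 WT libraries, and Fasl had 45 over the 5 adenomas. The sizes of their fold changes rest on those few reads.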
